A study of Mus musculus with 6 samples.

Results

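Tight junction and apical polarity genes were described in embryonic mouse tissue that the labels call retinal pigment epithelium (RPE), the pigmented monolayer between the neural retina and the choroid. The group was a list of 32 genes chosen by name, of 18193 genes that a probe set of the array named alone. Each gene was represented by the probe set with the highest mean over the 6 arrays among the probe sets annotated to it alone, and was tested where that mean log2 value was at least 5. Of the 32 genes, 28 were tested, 3 read below 5 (Tjp3, Marveld2 and Cldn19) and 1 (Crb2) had no probe set named for it in the annotation used.

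The series holds 3 arrays of albino pools and 3 arrays of pigmented pools, the labels' control, both from embryos at embryonic day 13.5. Its comparison is albino minus pigmented. Each array held RNA of tissue pooled from 3 to 4 littermates, and the labels call the pools of a genotype biological replicates. The labels give neither the mutated gene, nor the strains, nor whether albino and pigmented pools came from the same litters. The protocol removes cornea, lens, neural retina and extraocular tissue, while the sample descriptions speak of the whole eye region.

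Tight junctions seal the space between neighbouring epithelial cells near their apical side, and in the RPE they form the outer blood-retinal barrier. Claudins, which span the membrane, set which ions and solutes pass, while occludin, tricellulin (Marveld2) and the junctional adhesion molecules share the same strands or lie beside them. Cytoplasmic scaffolds such as ZO-1 (Tjp1) and cingulin (Cgn) tie the strands to actin. The PAR, Crumbs and Scribble complexes divide the cell surface into apical and basolateral parts, and catenins link cadherins to actin at the adherens junction.

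RPE genes read clearly on every array, among them Mitf, Tyr, Dct and Pmel, but so did genes of other tissues. Of 16 RPE markers, 13 were tested, with array means of 9.67 to 9.86 in albino pools and 9.83 to 10.08 in pigmented pools. Rpe65, Rgr and Bhlhe41 read below 5. Skeletal muscle markers had array means of 8.49 to 9.17 in albino pools and 7.05 to 7.94 in pigmented pools. Lens markers had a mean of 5.04 on the albino replicate 3 array, against 7.25 to 7.56 on the other arrays. Both arrays numbered replicate 1 stood apart from the other 4, and they lay above all other arrays at 43.5% of tested probe sets and below all of them at 15.7%. In such bulk tissue, fewer cells of a type and less RNA per cell cannot be told apart. A probe set's level says nothing of the amount of RNA relative to another probe set, so each gene is set only against itself across arrays.

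Among the claudins, the genotype differences of largest size were those of Cldn7, Cldn4 and Cldn3, all higher in albino pools and none past the test. The RefSeq promoter windows of these 3 genes (build GRCm38.p6, from 250 bases before to 50 bases after the start site, 5′ to 3′ on the gene's strand) are shown because the genes had high values on the same array, albino replicate 1. This does not set them apart. Cldn1, Cldn2 and Cldn6, and genes outside the claudins such as Jam3 and Pard6a, also had their highest value there. Capitals mark the letters CAGGTG or their reverse complement CACCTG, an E-box core to which the Snail and ZEB repressors are known to bind.
Cldn3, chr5:134985964-134986263, plus strand: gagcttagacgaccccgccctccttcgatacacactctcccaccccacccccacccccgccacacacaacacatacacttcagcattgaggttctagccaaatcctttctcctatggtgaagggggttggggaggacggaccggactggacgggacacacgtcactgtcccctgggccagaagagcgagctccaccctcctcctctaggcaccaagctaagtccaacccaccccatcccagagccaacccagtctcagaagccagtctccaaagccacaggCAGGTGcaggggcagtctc
Cldn4, chr5:134946885-134947184, minus strand: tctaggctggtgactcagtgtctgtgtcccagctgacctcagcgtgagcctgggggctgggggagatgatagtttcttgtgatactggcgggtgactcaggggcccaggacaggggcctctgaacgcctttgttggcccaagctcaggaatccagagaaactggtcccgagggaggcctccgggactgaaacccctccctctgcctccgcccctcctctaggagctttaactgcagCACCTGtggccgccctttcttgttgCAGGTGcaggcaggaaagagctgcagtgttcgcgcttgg
Cldn7, chr11:69965171-69965470, plus strand, the downstream of its 2 start sites in the table: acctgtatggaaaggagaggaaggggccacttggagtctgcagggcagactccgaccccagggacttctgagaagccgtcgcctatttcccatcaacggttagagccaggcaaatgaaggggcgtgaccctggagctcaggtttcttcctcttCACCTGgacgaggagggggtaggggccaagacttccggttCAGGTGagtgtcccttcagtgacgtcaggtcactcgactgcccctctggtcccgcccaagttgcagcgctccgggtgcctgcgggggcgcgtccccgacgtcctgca

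Cldn3 (chr5:134986214-134987476) and Cldn4 (chr5:134945123-134946934) are neighbouring genes on chromosome 5 with 39279 bases between them, and Cldn7 lies at chr11:69964779-69967886. The E-box letters occurred 1 time in the Cldn3 window, starting at position 32 after the start site. They occurred 2 times each in the Cldn4 and Cldn7 windows shown and 2 times in that of Cldn6, and the upstream Cldn7 window held none. Of 28 genes of the list with a promoter in the table, 13 held these letters in a window, among them 4 claudins (Cldn3, Cldn4, Cldn6 and Cldn7). The windows of Cldn1, Cldn2, Cldn10, Cldn11, Cldn12 and Cldn19 held none. Over all genes in the table the share was 22.6%, and of single windows 36.4% of 44 held them in the list against 20.2% of all. The letters AACCGGTT, the form that Grainyhead-like factors bind, occurred in 0 of 28 of these genes and in 0.174% of all genes. The matches are descriptions of letters and show no binding.

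Cldn7, a claudin of many simple and stratified epithelia, read 6.70, 5.68 and 5.75 in albino pools, against 5.94, 5.48 and 5.27 in pigmented pools (log2, replicates 1 to 3). The albino replicate 1 array was the highest, and the genotypes overlapped because pigmented replicate 1 lay above albino replicates 2 and 3. The difference was 0.48 (SE 0.31, 95% confidence interval -0.26 to 1.22, limma adjusted p = 0.999), or 1.39-fold. Arrays of the same number differed by 0.76, 0.20 and 0.48. Without both replicate 1 arrays the difference was 0.34. Leaving out single arrays gave 0.15 to 0.67, with 0.15 without albino replicate 1.

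Cldn4, which is typical of surface and glandular epithelia, read 7.43, 7.02 and 6.68 in albino pools, against 6.80, 6.39 and 6.69 in pigmented pools. Albino replicates 1 and 2 lay above all pigmented arrays, while albino replicate 3 lay among them. The difference was 0.42 (SE 0.21, interval -0.09 to 0.92), or 1.33-fold, and did not pass. It became 0.31 without both replicate 1 arrays. It was 0.22 without albino replicate 1, the lowest of the values without single arrays, which reached 0.60.

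Cldn3, a barrier-forming claudin of epithelia, read 6.78, 6.39 and 6.42 in albino pools, against 6.51, 5.86 and 6.30 in pigmented pools. All 3 same-number differences were positive (0.27, 0.53 and 0.12), yet pigmented replicate 1 exceeded 2 of the albino arrays. The difference was 0.31 (SE 0.20, interval -0.16 to 0.77), and the 3 other probe sets of the gene gave 0.38, 0.36 and 0.22. Without both replicate 1 arrays it was 0.33. Without single arrays it ran from 0.13, without pigmented replicate 2, to 0.45, and it was 0.18 without albino replicate 1.

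Cldn6, a claudin of embryonic epithelia, read 6.37, 5.86 and 5.95 in albino pools, against 5.83, 5.97 and 5.83 in pigmented pools. The albino replicate 1 array alone stood high, and without both replicate 1 arrays the difference of 0.18 (SE 0.15) was 0.0050.

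**Figure D1:**
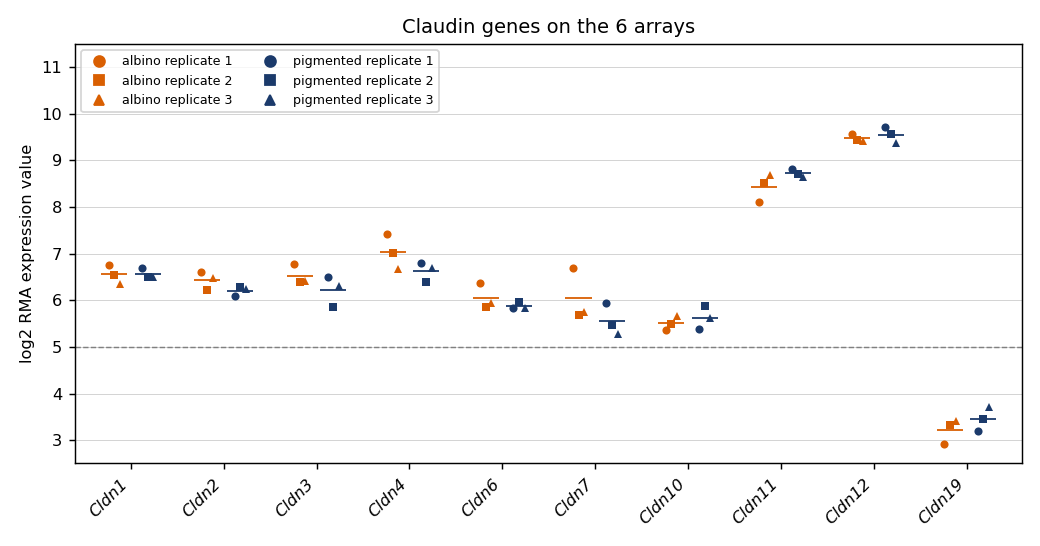
The log2 expression value of each claudin gene on the y axis is plotted for the 3 albino arrays (orange, left) and the 3 pigmented arrays (blue, right), with the genotype mean as a bar and the filter value of 5 as a dashed line. Cldn7 spans 5.27 to 6.70, with albino replicate 1 at the top, and Cldn19 lies below the line on all 6 arrays.

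Markers of surface ectoderm, a neighbouring tissue whose epithelia use these claudins, were high on the same array. Their array means were 8.44, 8.02 and 7.76 in albino pools, against 8.03, 7.80 and 7.89 in pigmented pools. Of 17 such markers 13 were tested, 11 of them higher in albino pools, beside 63.5% of all tested probe sets. The median difference of the tested markers was 0.093. Epcam, an epithelial adhesion gene, did not overlap between genotypes (8.84, 8.52 and 8.27 in albino, 8.18, 8.02 and 8.11 in pigmented pools), a difference of 0.44. The second tested Epcam probe set lay on the other side, at -0.29. Krt15, a keratin of basal epidermal cells, had the highest difference of these markers at 0.61 (SE 0.23). The keratin gene Krt18 had the lowest at -0.22, and the E-cadherin gene Cdh1 differed by -0.08. Krt12, Krt13 and Grhl3 read below 5. A high mean on albino replicate 1 was not particular to ectoderm markers. Erythroid markers had a mean of 10.87 there, against 10.17 to 10.47 on the other arrays. The 28 tested genes of the list had 8.12, against 7.90 to 8.04. RPE markers were instead highest on pigmented replicate 1, at 10.08. The part of surface ectoderm in the claudin values was not tested.

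**Figure D2:**
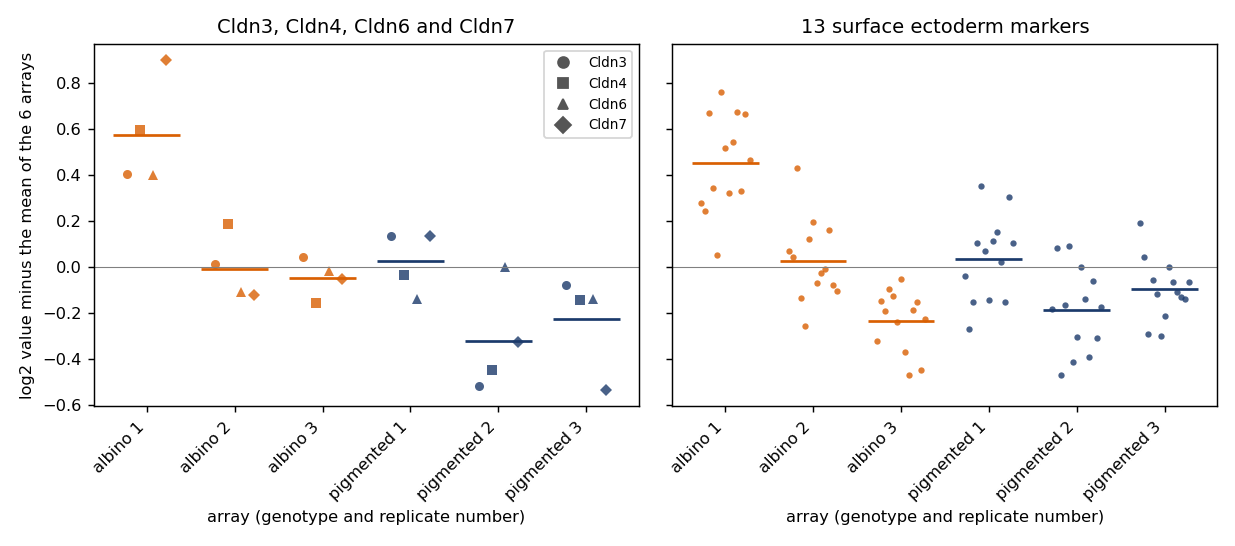
Each gene's log2 value minus its mean over the 6 arrays is plotted by array for Cldn3, Cldn4, Cldn6 and Cldn7 (left) and for the 13 tested surface ectoderm markers (right), with the mean of the genes as a bar. In both panels albino replicate 1 lies highest. The ectoderm markers have their lowest mean at albino replicate 3, and the 4 claudins have theirs at pigmented replicate 2.

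The other claudins did not pass either. Cldn2, which forms a paracellular cation pore, read 6.60, 6.23 and 6.47 in albino pools, against 6.09, 6.28 and 6.25 in pigmented pools. Its difference of 0.23 (SE 0.12) was 0.085 without both replicate 1 arrays, and its second probe set read below 5. Cldn1, the main barrier claudin of epidermis, read 6.76, 6.55 and 6.36 in albino pools, against 6.70, 6.49 and 6.49 in pigmented pools, a difference of 0.00 (interval -0.32 to 0.31).

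Cldn11, known from Sertoli cell and myelin junctions, read 8.10, 8.52 and 8.69 in albino pools, against 8.82, 8.71 and 8.64 in pigmented pools. Albino replicate 1 was the lowest array. The difference of -0.29 (SE 0.16) was -0.070 without both replicate 1 arrays. Cldn12, a claudin without the usual PDZ-binding tail, differed by -0.08 (SE 0.12), with its second probe set at -0.06. Cldn10, whose isoforms form cation or anion pores, differed by -0.12 (SE 0.15) and was measured by 1 probe set.

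Cldn19, known as a major claudin of human RPE, read 2.92, 3.32 and 3.41 in albino pools, against 3.20, 3.46 and 3.71 in pigmented pools. All 6 values lay below the filter, so the gene was not tested, and a value this low on 1 probe set gives no statement on the transcript. Outside the list, the endothelial claudin Cldn5 read 8.87, 8.67 and 8.81 in albino pools, against 9.02, 8.97 and 8.92 in pigmented pools. The genotypes did not overlap (difference -0.19, SE 0.09). Among the endothelial markers Erg had the lowest difference (-0.45, SE 0.11), with its second tested probe set at -0.06, and Pecam1 had the highest (0.15, SE 0.13). Of 14 endothelial markers 6 were higher in albino pools, beside 63.5% of all tested probe sets. Endothelial array means were 7.87 to 7.98 in albino pools and 7.94 to 8.03 in pigmented pools, and their part in Cldn5 was not tested. Cldn5 itself is 1 of these 14 markers.

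Tjp1, which encodes the scaffold ZO-1, read 10.69, 10.66 and 10.80 in albino pools, against 10.98, 10.87 and 10.86 in pigmented pools. Every albino array lay below every pigmented array. The difference was -0.19 (SE 0.09, interval -0.40 to 0.03, limma adjusted p = 0.999), and no other probe set names the gene alone. Leaving out any single array gave -0.23 to -0.15, and leaving out both replicate 1 arrays gave -0.14.

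The remaining scaffolds did not pass. Cgn read 6.17, 6.08 and 5.90 in albino pools, against 6.27, 6.14 and 6.06 in pigmented pools (difference -0.11, SE 0.11). Cgnl1, the gene of the cingulin paralog paracingulin, differed by -0.15 (SE 0.21), and its 2 other tested probe sets gave -0.04 and -0.19. Tjp1, Cgn and Cgnl1 were lower in albino pools at all 3 replicate numbers, a pattern held by 13.3% of all tested probe sets. Magi1, a membrane-associated guanylate kinase, differed by 0.10 (SE 0.17), with both replicate 1 arrays below the other 4. Tjp3, the gene of ZO-3, read 4.90, 4.19 and 4.32 in albino pools, against 4.83, 4.16 and 4.34 in pigmented pools, all below the filter.

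Ocln, the gene of occludin, read 5.28, 5.02 and 5.07 in albino pools, against 4.98, 4.96 and 4.92 in pigmented pools. The genotypes did not overlap (difference 0.17, SE 0.10), at values close to the filter. All pigmented values lay below 5, so the gene reached the filter only through its albino values. The second Ocln probe set, with a mean below 5, gave -0.10. Marveld2, the gene of tricellulin, which seals corners where cells of an epithelium meet, read 4.88, 5.32 and 5.16 in albino pools, against 4.30, 4.76 and 5.03 in pigmented pools. Its mean of 4.91 fell short of the filter, and the difference of 0.42 was not tested.

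Jam3, a junctional adhesion molecule gene, had little spread within each genotype. It read 8.73, 8.68 and 8.66 in albino pools, against 8.55, 8.51 and 8.52 in pigmented pools, with no overlap. The difference of 0.16 (SE 0.08, interval -0.03 to 0.36) did not pass (limma adjusted p = 0.999). The second Jam3 probe set, which read below 5, gave -0.18. Jam2, which is also made by endothelium, differed by -0.09 (SE 0.11), with its second tested probe set at 0.10. F11r, the gene of JAM-A, differed by 0.02 (SE 0.09), with its second tested probe set at -0.06. It had the smallest range over the 6 arrays of the tested genes (0.15).

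The catenins of the adherens junction showed no difference past the test. Ctnnb1, which encodes beta-catenin, also the effector of Wnt signalling, read 13.44, 13.11 and 13.11 in albino pools, against 13.49, 13.09 and 13.12 in pigmented pools. The replicate 1 arrays of both genotypes were the high ones, and the genotype difference was -0.01 (interval -0.38 to 0.36). Its 2 other probe sets gave 0.12 and 0.20. Ctnna1 (alpha-catenin, the actin link) differed by -0.10 (SE 0.11), with its other tested probe sets at 0.00 and 0.36. Ctnnd1 (p120-catenin, which holds cadherins at the surface) differed by 0.05 (SE 0.12), with its second tested probe set at -0.06.

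In the PAR complex, which marks the apical domain, Pard3, the gene of its junctional scaffold, read 9.04, 9.14 and 9.14 in albino pools, against 8.66, 8.96 and 9.15 in pigmented pools. Pigmented replicate 1 was low and pigmented replicate 3 the highest of all. The difference was 0.18 (SE 0.14), and its 3 other tested probe sets gave 0.15, 0.23 and 0.07. Without both replicate 1 arrays it was 0.085.

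Pard6a, which encodes an adaptor of the complex, read 7.18, 6.64 and 6.52 in albino pools, against 7.09, 6.38 and 6.36 in pigmented pools. Its replicate 1 arrays exceeded the others by a mean of 0.66, and the genotype difference was 0.17 (SE 0.26). Pard6b differed by -0.01 (SE 0.12), with its second tested probe set at -0.27. Prkci, the gene of the atypical protein kinase C that phosphorylates basolateral factors, differed by -0.08 (SE 0.09), with its second tested probe set at 0.03.

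Lin7c, a scaffold of the Crumbs complex, read 9.28, 8.93 and 8.91 in albino pools, against 9.38, 9.02 and 8.95 in pigmented pools. It was lower at each replicate number, by at most 0.10, while its 2 other tested probe sets gave 0.15 and 0.08. The Scribble complex, which keeps the basolateral domain, had all 3 of its listed genes higher in albino pools. Dlg1 differed by 0.13 (SE 0.17), Scrib by 0.06 (SE 0.09) and Llgl1 by 0.06 (SE 0.10). The median of all tested probe sets was 0.047.

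**Figure D3:**
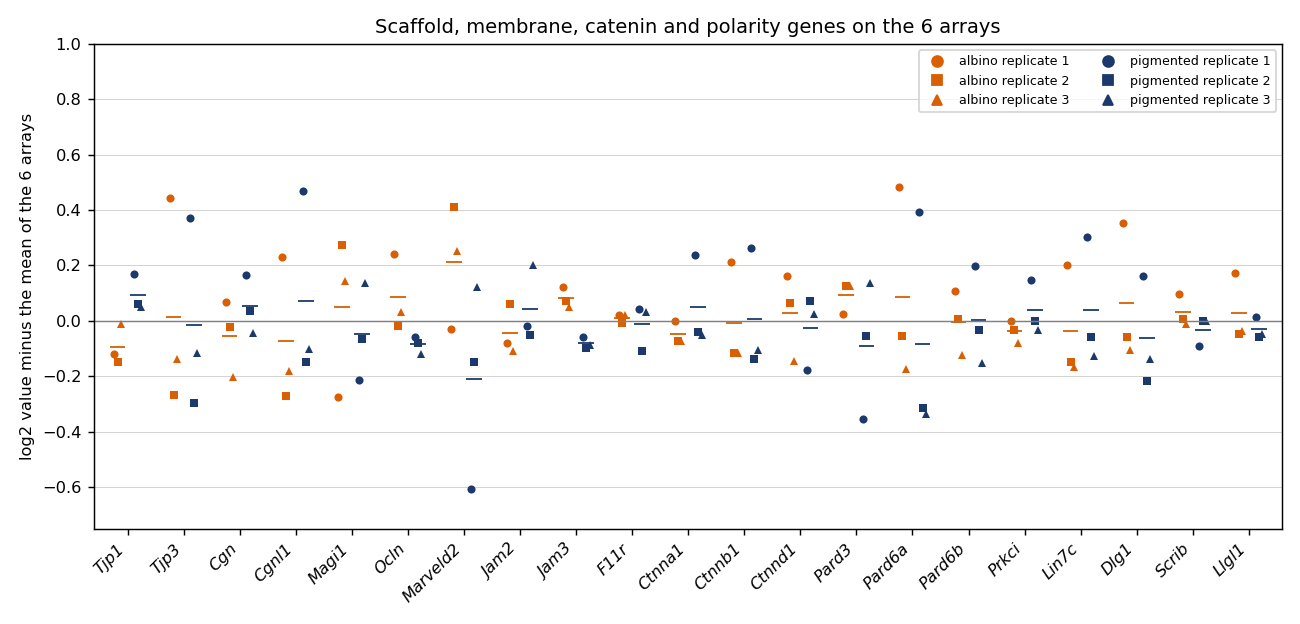
For each gene outside the claudins, the log2 value of every array minus the mean of the 6 arrays is plotted for albino (orange, left) and pigmented pools (blue, right), with genotype means as bars. Tjp1 and Jam3 show no overlap between the genotypes, and replicate 1 arrays (circles) lie apart for Pard6a and Cgnl1.

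Over the list, 0 of 28 tested genes passed the limma test at an adjusted p under 0.05, beside a background of 0% of 23591 probe sets, and 0 of 28 stood at an unadjusted p under 0.05, beside 4.68% of all. The replicate 1 arrays of both genotypes moved together. In the alternative limma fit with the replicate block, 6 of 28 stood at an unadjusted p under 0.05, beside 18.0% of all. In that fit 0 passed after adjustment (smallest adjusted p in the list 0.200). Those 6 were Cldn7, Cldn3, Jam3, Cldn4, Pard6a and Tjp1, whose intervals with the block leave out 0. The SE of Cldn7 was 0.12 with the block, against 0.31 without it. In the unpaired fit the albino mean was higher at 15 and lower at 13, a share of 53.6% higher beside 63.5% of all probe sets. The median difference was 0.038, beside 0.047. The genotypes did not overlap at 3 of 28, or 10.7%, beside 10.8% of all probe sets. Those 3 were Ocln and Jam3, higher in albino pools (7.14%, beside 7.39% of all), and Tjp1, lower (3.57%, beside 3.44%). Ocln reached the filter only through its albino values. With a filter of 6 the count was 2 of 24, beside 11.2% of all. Albino arrays were higher at all 3 replicate numbers for 7 of 28 genes, or 25.0%, beside 29.1% of all, and lower at all 3 for 6 of 28, or 21.4%, beside 13.3%.

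**Figure D4:**
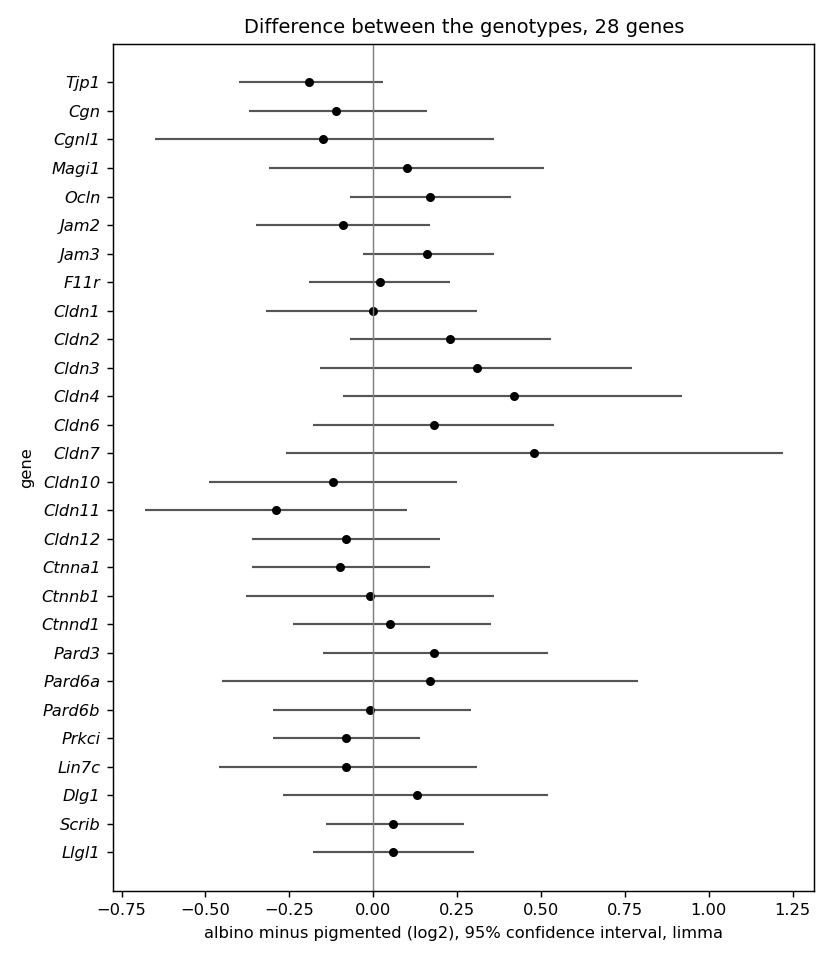
The albino minus pigmented difference in log2 is plotted for the 28 tested genes with its 95% confidence interval from the limma fit without the replicate block. All intervals of that fit include 0, and the interval of Cldn7 (-0.26 to 1.22) is the widest.

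Replicate 1 arrays differed from the other 4 by more than the genotypes differed at 19 of 28 genes. The share of all probe sets was not computed for this count, so it is not read as a trait of these genes. Both replicate 1 arrays lay above all other arrays at 13 of 28 genes, or 46.4%, beside 43.5% of all probe sets, and below all others at 2 of 28, or 7.14%, beside 15.7%. Cldn7 had the largest mean excess on replicate 1 arrays (0.78), followed by Pard6a (0.66) and Cgnl1 (0.53). Magi1, Cldn10 and Pard3 lay lower on them, by -0.37, -0.29 and -0.25. These values compare array numbers and no condition of the study.

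**Figure D5:**
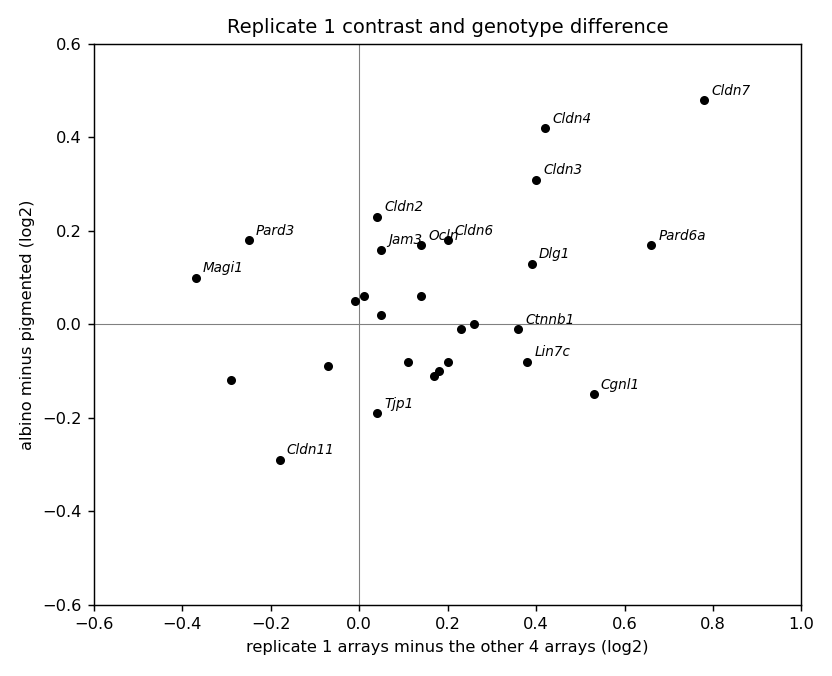
Each point is a tested gene, with the mean of both replicate 1 arrays minus the mean of the other 4 arrays on the x axis and the albino minus pigmented difference on the y axis, both in log2. Cldn7 lies farthest out at 0.78 and 0.48, and Cldn11 is the lowest point at -0.18 and -0.29.

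Of other junction and polarity genes, 56 of 76 listed were tested and 0 passed in either direction, beside the same 0%. The differences ran from -0.44 to 0.47 with a median of 0.028, and 31 were higher and 24 lower. Lin7a, a paralog of Lin7c named here after its values were seen, had the highest of these differences. It read 7.43, 7.17 and 7.01 in albino pools, against 6.83, 6.41 and 6.95 in pigmented pools, without overlap (difference 0.47, SE 0.18, limma adjusted p = 0.999). Rdx, also named after its values were seen, had the lowest, without overlap (-0.44, SE 0.13, limma adjusted p = 0.906). The other tested Rdx probe sets gave 0.01 and 0.18. Of the 56 genes, 4 were higher without overlap, beside 7.39% of all probe sets, and 3 lower, beside 3.44%. Among apical partners of the Crumbs complex, Crb3 differed by -0.09 (SE 0.15), the palmitoylated scaffold Pals1 by 0.18 (SE 0.43), Patj by 0.01 (SE 0.10) and the PAR kinase Prkcz by -0.07 (SE 0.09). Crb1, a photoreceptor and glial polarity gene, read below 5.

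Ezr encodes ezrin, which anchors the apical microvilli of the RPE to actin. It read 8.86, 9.10 and 9.09 in albino pools, against 9.18, 9.40 and 9.35 in pigmented pools, without overlap. The difference was -0.29 (SE 0.11, limma adjusted p = 0.999) and did not pass. Of the remaining genes fixed for description, Cxadr, an immunoglobulin-type junction protein gene, differed by -0.04, Afdn (afadin) by 0.08, Nectin1 by -0.06, Nectin3 by 0.12 and the basolateral Llgl2 by -0.09. In the pools where Ezr was lower, 12 of 13 tested RPE markers were lower too. Of all tested probe sets, 63.5% were higher in albino pools. The RPE marker list had a mean of 9.77 ± 0.10 on albino arrays and 9.94 ± 0.13 on pigmented arrays (SD over 3 arrays). The part of RPE markers in the value of Ezr was not tested.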

How the data were processed

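The authors deposited log2 expression values. Per the submitters' processing notes, these came from RMA and Affymetrix Expression Console 1.1. RMA corrects background, quantile-normalizes arrays and summarises probe sets. Whether 1 run covered all 6 arrays is not stated in the labels. Array medians were 5.18 to 5.21, and quantile normalization removes shifts shared by all transcripts. The number of arrays limits the precision. Labelling used 100 ng of total RNA and primed from the 3′ end, per the labels' protocols.

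Of 45101 probe sets, 64 controls were left out, 34945 named 1 gene, 932 several and 9160 none in the platform annotation, and 34754 matched RefSeq genes of GRCm38.p6 by Entrez ID. Those with a mean of at least 5 (23591) were tested with limma 3.58.1 in R 4.3.3 (lmFit, eBayes, two-sided, Benjamini-Hochberg over all of them, threshold 0.05). Differences are albino minus pigmented. All genes of the list were named, with 13 other junction genes fixed by name. Members and lists were chosen with earlier results of these data known. Genes outside these, such as Epcam, Krt15, Cdh1 and Erg, were chosen after their values were seen.

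Deviations from genotype means correlated at 0.863, 0.687 and 0.448 between arrays numbered 1, 2 and 3, and every pair exceeded 0.1. No label gives a pairing, and these values cannot show one for numbers 2 and 3. Each deviation is taken from a genotype mean that the shifted replicate 1 array moves, and unlike numbers were not compared. Over whole arrays, the replicate 1 arrays had r = 0.9943 with each other, and at most 0.9831 with any other array. Pigmented replicate 3 had the same r, 0.996, with albino replicates 2 and 3. The replicate block thus assumes a pairing of numbers 2 and 3. The main fit has no replicate block, and every SE, interval and adjusted p printed is from it unless the block is named. Alternatives changed the block, the scaling, the filter, the probe set rule, the array weights and the arrays used. No 2 arrays shared over 5.44% of their values, the share of albino and pigmented replicate 1. The p-values of the main fit measure the spread between pools, which includes the shift shared by the replicate 1 arrays.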

Additional observations from a re-analysis of the deposited data

How the results depend on the processing

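No gene of the list, and no other junction gene, passed under any alternative run. With the replicate block the 28 differences were the same values and 0 passed. The count of genes higher in albino pools (15 of 28) stayed between 12 and 17 under the alternatives of fit, scaling, filter and probe set. The number of genes tested changed among them. The count was 12 of 24 with a filter of 6, 17 of 31 without a filter and 17 of 28 with probe sets averaged. It lay between 11 and 20 of 28 without single arrays. The median difference (0.038) lay between 0.003 and 0.062 under the same alternatives, and between -0.024 and 0.069 without single arrays, where it was -0.024 without albino replicate 1. The number of genes whose genotypes do not overlap (3) was 5 after cyclic loess, where 13.1% of all probe sets did not overlap. It was 11 without both replicate 1 arrays, where the share of all was 46.2%. Without single arrays, with fewer arrays to overlap, it was 5 to 7. The count was 7 without albino replicate 1, beside 22.9% of all, and 7 without pigmented replicate 1, beside 33.6%. It was 6 without albino replicate 3, beside 17.2%, and 5 without any of the others, beside 14.1% to 16.6%.

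Of the 28 tested genes, 12 kept their sign under all alternatives, among them Tjp1, Jam3, Ocln, Cldn2, Cldn3, Cldn4, Cldn6, Cldn7, Cldn11 and Pard3, with Scrib at 0.00 without both replicate 1 arrays. The sign turned for the others, none of them past the threshold, and the cause was not tested. Without both replicate 1 arrays Ctnnb1 gave 0.0050, Ctnnd1 -0.090 and Pard6b 0.035, and with array weights Ctnnd1 gave -0.083 and Pard6b 0.028. After median centring Cldn1 gave 0.0030, and after cyclic loess F11r gave -0.029, Ctnnb1 0.011 and Ctnnd1 -0.0010. With probe sets averaged, Jam2 gave 0.0080, F11r -0.018, Ctnna1 0.089, Ctnnb1 0.10, Ctnnd1 -0.0050 and Lin7c 0.051. With _x_at and _s_at probe sets left out, Ctnnd1 gave -0.063 and Prkci 0.027. Without single arrays the differences ran from -0.022 to 0.14 for Ctnnd1, -0.030 to 0.41 for Pard6a, -0.018 to 0.24 for Dlg1, -0.012 to 0.098 for Llgl1, -0.017 to 0.26 for Magi1 and -0.12 to 0.12 for Ctnnb1. They ran from -0.11 to 0.095 for Cldn1, -0.085 to 0.090 for Pard6b, -0.30 to 0.052 for Cgnl1, -0.17 to 0.0030 for Cldn12, -0.20 to 0.055 for Lin7c, -0.025 to 0.050 for F11r and -0.24 to 0.0070 for Cldn10. Values near the filter, as for Ocln, are the ones least above background.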
